A study of Mus musculus with 6 samples.

Results

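Expression of 10 genes that let T cells hold on to other cells and to matrix was followed on 6 Affymetrix arrays of mouse CD4 T cells grown under conditions that favour follicular helper T (Tfh) cells. They were taken by name, not by their values: the integrin chains Itgal, Itgb2, Itga4, Itgb1, Itgb7, Itgae, Itgav and Itgb3, the selectin ligand Selplg and the hyaluronan receptor Cd44. All 10 were measured, among 18193 genes in all, by 29 probe sets that the platform annotation ties to a single gene. Where a gene had several, the brightest on average stands for it. The other 19 are described separately.

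The 3 SAP-deficient arrays held RNA of OT-II T cells that lack SAP, the adaptor protein encoded by Sh2d1a. The 3 wild-type (WT) arrays held RNA of OT-II T cells with SAP. OT-II is a T cell receptor transgene specific for an ovalbumin peptide, and cells of both genotypes carried it. In both groups, cells from spleen and lymph nodes were sorted as naive CD4+ T cells that were low for CD44, positive for CD62L and negative for CD25. They were then cultured for 3.5 days with the peptide and with splenocytes from which T cells had been removed and whose division was stopped with mitomycin C. Both groups received 100 ng/ml of IL-6 and 50 ng/ml of IL-21. Antibodies blocked TGF-β (20 µg/ml), IL-4 (10 µg/ml), IL-12 and IFN-γ. The age and sex of the mice, how the SAP-deficient allele was made, and whether arrays of a genotype came from separate animals are not given in the labels. P-values therefore reflect the array-to-array spread, which may in part be technical. CD44 protein was part of the sort, so the starting cells of both genotypes were chosen to be low for it.

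Integrins are pairs of an α and a β chain that switch from a resting to an adhesive shape when chemokine or T cell receptor signals reach their short tails inside the cell. The αL and β2 chains form LFA-1, which binds ICAM-1 on antigen-presenting cells and steadies the contact through which a T cell reads antigen. The α4 chain pairs with β1 to bind VCAM-1 or with β7 to bind MAdCAM-1 of gut vessels, and αE pairs with β7 to bind E-cadherin of epithelium. The αv chain pairs with several β chains, among them β3 and β1, to bind matrix proteins such as vitronectin and fibronectin. PSGL-1, encoded by Selplg, carries sugars that selectins bind while a cell rolls along a vessel, and CD44 binds hyaluronan and is a lasting mark of T cells that have met antigen.

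The labels were checked first. Sh2d1a was at 5.47, 4.10 and 4.92 (log2) in SAP-deficient cells and at 9.50, 8.52 and 9.39 in WT cells, and the groups did not overlap. All 10 measured genes of a list of 12 CD4 T cell markers lay above 5.75, the median of all probe-set means. Summed on the linear scale, these markers ranged from 32743 to 38142 in SAP-deficient arrays and from 32846 to 37742 in WT arrays. Of 10 Tfh markers, Sh2d1a among them, 9 lay above that median, and 8 had a lower mean in SAP-deficient cells (median change -0.15). At an unadjusted p under 0.05 (limma) 1 was lower, Sh2d1a itself, and 0 higher. Over all genes 0.748% were lower and 0.566% higher at that threshold. With the replicate number as a block, 4 were lower, Sh2d1a among them, and 2 higher. In that fit 6.10% of all genes had an unadjusted p under 0.05. The Tfh marker sums were 10394.6, 7798.8 and 11110.5 in SAP-deficient and 11450.2, 8514.7 and 13278.2 in WT arrays 1, 2 and 3. Sh2d1a is part of these sums, so its loss by design lowers the SAP-deficient ones. Sums without it were not made. Of 11 measured B cell markers 5 lay above that median, with sums of 526 to 639 in SAP-deficient and 610 to 772 in WT arrays. Of these markers, 10 of the 11 had a lower mean in SAP-deficient cells (median change -0.16). An unadjusted p under 0.05 (limma) was found for 0 of them, against 1.31% of all genes. With the replicate number as a block it was found for 2, against 6.10%. The sum was lower in each replicate number, at 639, 584 and 526 in SAP-deficient against 772, 610 and 694 in WT arrays. The part of these marker differences in the adhesion genes was not tested. Of 14 macrophage and dendritic cell markers 8 lay above the median, with sums of 853 to 1182 in SAP-deficient and 934 to 1134 in WT arrays. These values have no true zero, so a marker at background cannot be told from an absent one. Each array reads the whole culture, so fewer cells of a type and less RNA per cell cannot be told apart.

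Between the genotypes, the adhesion genes did not differ by more than the spread of the arrays. The changes (log2 of SAP-deficient over WT) ran from -0.18 (Itgb3) to 0.15 (Itgb7), with 6 genes higher, 4 lower and a median of 0.02, against a median of 0.01 over all genes. Limma called 0 of the 10 at an adjusted p under 0.05, and 0% of all 18193 genes. At an unadjusted p under 0.05 it again found 0 of the 10, against 1.31% of all genes. In none of the 10 did the 3 arrays of one genotype lie wholly to one side of the other, which happened upward in 2.38% and downward in 2.94% of all genes. Each adjusted p was 1.00. The 95% intervals reached at most from -0.65 (Itgb3) to 0.48 (Selplg), so a 1.57-fold lower level of Itgb3 or a 1.39-fold higher level of Selplg remained inside them. The plot of changes shows these intervals with the differences between arrays of equal replicate number.

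**Figure D1:**
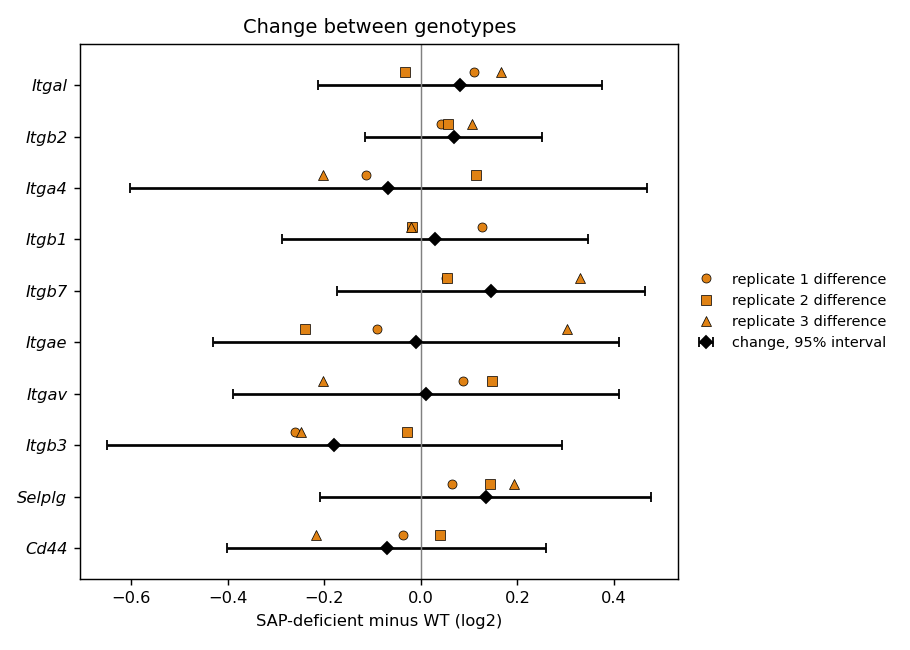
Change of each adhesion gene, SAP-deficient minus WT, in log2 units on the x axis, with 1 gene per line. Black diamonds with bars are the estimates of limma with 95% intervals, and orange symbols are the differences between SAP-deficient and WT arrays of replicate number 1 (circle), 2 (square) and 3 (triangle). Every interval crosses 0, and the orange symbols lie on both sides of 0 for 6 of the 10 genes.

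Much more of the variation lay between replicate numbers than between genotypes. Numbers were given in accession order and the labels state no pairing, but over even-numbered probe sets of other genes the arrays of equal number deviated together: the correlation of their deviations from the genotype means was 0.52, 0.73 and 0.59 for numbers 1, 2 and 3, and at most -0.09 for unequal numbers. Deviations within a genotype sum to 0, so positive values for equal numbers tend to make those for unequal numbers negative. For the 10 adhesion genes, the median share of the variance that lay between the numbers was 86.1%, and the median share between genotypes was 4.74%. Over all genes these medians were 66.9% and 6.36%, and over genes above the median level the first was 78.7%. The means of the numbers differed by 0.16 (Itgb2) to 0.68 (Itga4) log2 units, with a median of 0.41, against 0.23 over all genes. In each of the 10 genes this spread was larger than the change between genotypes, as it was in 88.9% of all genes. The 2 measures are unlike. The spread is the range of 3 means of 2 arrays, and the change is the difference of 2 means of 3 arrays. The spread therefore tends to be larger even without a difference between numbers. The variance share between numbers likewise has 2 degrees of freedom, against 1 for genotype.

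The genes followed the replicate numbers in different ways. Itgb1, Itgb7 and Itgav were highest in number 3 and lowest in number 2, an order found in 22.3% of all genes. Itga4, Itgae and Itgb3 were highest in number 3 and lowest in number 1 (15.0% of all genes). Itgal and Selplg were highest in number 2 and lowest in number 3 (21.7%), Cd44 was highest in 2 and lowest in 1 (10.3%), and Itgb2 was highest in 1 and lowest in 3 (13.5%). Chains that pair with each other, read by their brightest probe sets, thus did not always share an order. Relative to their own means, Itgal stood at -0.04, 0.20 and -0.17 in numbers 1, 2 and 3, and its partner Itgb2 at 0.05, 0.05 and -0.10. Itgav stood at -0.01, -0.27 and 0.27, against -0.35, 0.16 and 0.18 for Itgb3 and 0.02, -0.19 and 0.18 for Itgb1. Some orders rest on small gaps. Itgb2 averaged 11.767 in number 1 and 11.764 in number 2, and Itgb3 5.87 in number 3 and 5.85 in number 2. The second Itgal probe set was highest in number 1 and lowest in number 3, the order of Itgb2. What differed between the replicate numbers is not given in the labels, and its part in these orders was not tested.

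**Figure D2:**
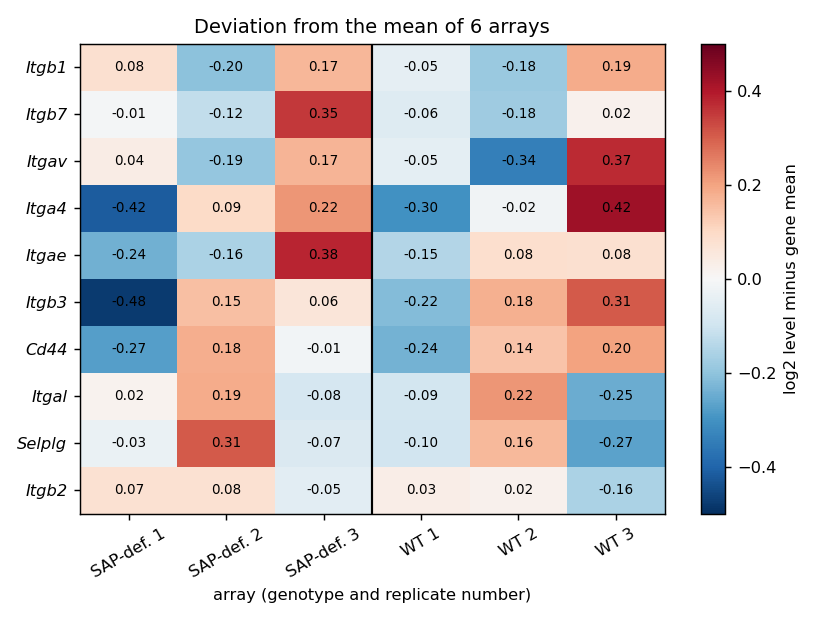
Deviation of each adhesion gene (rows) from its own mean over the 6 arrays, in log2 units, for the SAP-deficient arrays (left 3 columns) and the WT arrays (right 3 columns). Red is above and blue below the gene's mean, and equal replicate numbers tend to share a colour: Itga4 (log2 levels of 6.87 and 6.98 in number 1, and of 7.51 and 7.71 in number 3) is blue in number 1 and red in number 3.

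Promoter sequences were available from RefSeq (GRCm38.p6) for 5 of the 10 genes. They are shown because Itgb1, Itgav and Itgb7 shared an order over the replicate numbers while Itga4 and Cd44 each had another. Each line gives the 250 bases before the annotated start, 5′ to 3′ on the gene's strand. Capitals mark the letters GGAA (the core bound by ETS factors), GGGCGG (the GC box bound by SP and KLF factors) and TGTGGT (the core bound by RUNX factors), on either strand; the marked matches do not overlap.
Itgb1 (chr8:128685404-128685653, + strand): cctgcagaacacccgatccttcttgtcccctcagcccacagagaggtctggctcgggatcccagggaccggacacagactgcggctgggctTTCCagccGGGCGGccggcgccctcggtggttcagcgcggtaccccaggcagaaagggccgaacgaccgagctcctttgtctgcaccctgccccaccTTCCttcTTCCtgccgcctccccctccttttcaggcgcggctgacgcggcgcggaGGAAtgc
Itgav (chr2:83724147-83724396, + strand): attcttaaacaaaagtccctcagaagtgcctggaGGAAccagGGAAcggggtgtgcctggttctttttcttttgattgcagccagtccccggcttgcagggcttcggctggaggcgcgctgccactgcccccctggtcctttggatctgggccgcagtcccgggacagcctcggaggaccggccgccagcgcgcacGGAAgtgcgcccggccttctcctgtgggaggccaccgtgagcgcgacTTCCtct
Itgb7 (chr15:102231936-102232185, - strand): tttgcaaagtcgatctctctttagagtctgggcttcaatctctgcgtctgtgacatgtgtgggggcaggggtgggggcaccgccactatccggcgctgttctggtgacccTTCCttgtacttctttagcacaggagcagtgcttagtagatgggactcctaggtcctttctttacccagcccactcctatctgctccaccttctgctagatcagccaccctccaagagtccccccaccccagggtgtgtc
Itga4 (chr2:79255176-79255425, + strand): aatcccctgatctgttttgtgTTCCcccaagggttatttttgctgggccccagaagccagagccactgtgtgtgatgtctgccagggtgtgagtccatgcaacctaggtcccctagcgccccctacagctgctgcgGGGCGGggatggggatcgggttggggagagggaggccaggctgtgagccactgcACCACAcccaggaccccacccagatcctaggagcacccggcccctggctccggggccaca
Cd44 (chr2:102901666-102901915, - strand): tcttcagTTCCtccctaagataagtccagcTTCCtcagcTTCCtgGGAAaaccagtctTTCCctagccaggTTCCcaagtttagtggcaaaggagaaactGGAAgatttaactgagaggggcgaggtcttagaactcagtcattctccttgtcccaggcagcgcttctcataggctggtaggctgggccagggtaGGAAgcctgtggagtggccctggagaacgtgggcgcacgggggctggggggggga

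Of these motifs, GGAA occurred in all 5 sequences, 4 times in Itgb1, 4 times in Itgav, 8 times in Cd44 and 1 time each in Itgb7 and Itga4. It is a short motif that 93.4% of 32851 promoter windows of the same length hold. GGGCGG occurred 1 time each in Itgb1 and Itga4 and in 32.7% of all windows, and TGTGGT 1 time in Itga4 and in 14.0% of all windows. The Itgb1 and Itgav windows held 21 and 18 CG dinucleotides, against 6 in Itga4, 5 in Itgb7 and 5 in Cd44 and a median of 6 over all windows. The 3 genes that shared an order therefore did not share a base composition. The letters are a description of these windows and say nothing of which factors were bound.

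LFA-1 was bright on every array. Itgal, the αL chain, was at 11.58, 11.75 and 11.48 in SAP-deficient cells and at 11.47, 11.78 and 11.31 in WT cells. The highest and the lowest array were both WT, and the groups overlapped. The change was 0.08 ± 0.13 (SE; 95% interval -0.21 to 0.38). Itgb2, the β2 chain that LFA-1 shares with the myeloid integrins, was at 11.79, 11.79 and 11.66 in SAP-deficient cells and at 11.75, 11.74 and 11.56 in WT cells. It was the steadiest of the 10, with a range of 0.24 over the 6 arrays, and its change was 0.07 ± 0.08 (-0.12 to 0.25). SAP-deficient arrays were above WT arrays of equal number by 0.04, 0.06 and 0.11, although the groups overlapped. Itgb2 was 1 of 3 genes higher in all 3 numbers, with Itgb7 and Selplg; 15.6% of all genes were.

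**Figure D3:**
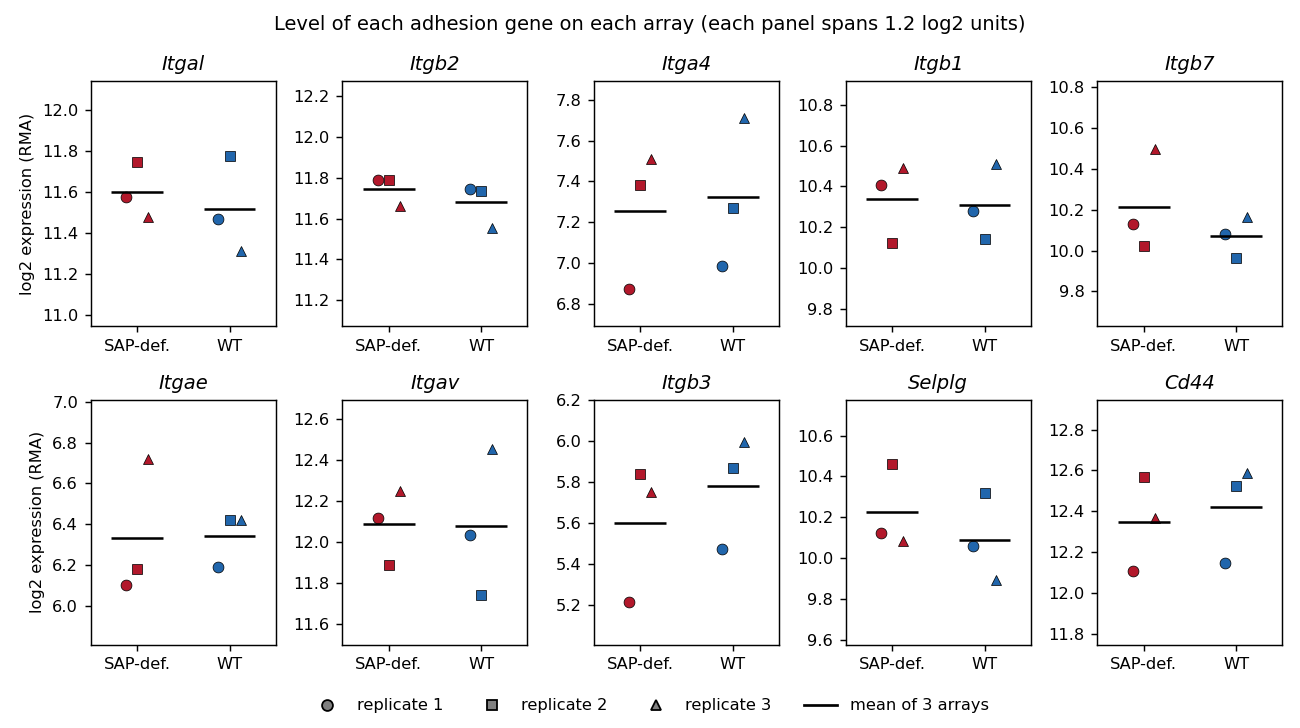
Level of each adhesion gene (log2, as normalized by the authors with RMA) on the 3 SAP-deficient arrays (red, left) and the 3 WT arrays (blue, right). Symbols give the replicate number, black lines are group means, and every panel spans the same 1.2 log2 units. The groups overlap in all 10 panels, and arrays of equal number tend to lie at similar heights.

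The α4 chain varied most. Itga4 was at 6.87, 7.38 and 7.51 in SAP-deficient cells and at 6.98, 7.27 and 7.71 in WT cells, a range of 0.84 over all arrays. Number 1 was the lowest array of each genotype. Means were 7.25 ± 0.34 and 7.32 ± 0.37 (SD, n = 3 arrays each) in SAP-deficient and WT cells, and the change was -0.07 ± 0.23 (SE; -0.60 to 0.47). Its partner β1, encoded by Itgb1, was at 10.41, 10.12 and 10.49 in SAP-deficient cells and at 10.28, 10.14 and 10.51 in WT cells. Number 2 was the lowest in each genotype, and the change was 0.03 ± 0.14 (-0.29 to 0.35). For this gene 94.4% of the variance lay between replicate numbers and 0.852% between genotypes.

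The β7 chain had the largest positive change of the 10. Itgb7 was at 10.13, 10.02 and 10.50 in SAP-deficient cells and at 10.08, 9.97 and 10.17 in WT cells. The 2 groups overlapped, and the third SAP-deficient array stood above the rest. The change was 0.15 ± 0.14 (-0.17 to 0.46), with an unadjusted p of 0.323 and an adjusted p of 1.00 (limma). By replicate number the differences were 0.05, 0.06 and 0.33, and without SAP-deficient replicate 3 the change was 0.006. Itgae, the αE chain, which pairs with β7 and which TGF-β is known to induce, was at 6.10, 6.18 and 6.72 in SAP-deficient cells and at 6.19, 6.42 and 6.42 in WT cells. Again the third SAP-deficient array was the highest. The change was -0.01 ± 0.18 (-0.43 to 0.41), with differences of -0.09, -0.24 and 0.30 by number. The Itgae signal lay not far above the median of all probe-set means (5.75). These cultures all contained an antibody that blocks TGF-β, and its part in the Itgae signal was not tested.

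The αv chain was bright, and it varied more between replicate numbers than between genotypes. Itgav was at 12.12, 11.89 and 12.25 in SAP-deficient cells and at 12.03, 11.74 and 12.46 in WT cells. Both the highest and the lowest array were WT, and number 2 was lowest in each genotype. The change was 0.01 ± 0.17 (-0.39 to 0.41). Its means over the replicate numbers differed by 0.54. Itgb3, the β3 chain best known from platelets, osteoclasts and macrophages, was at 5.21, 5.84 and 5.75 in SAP-deficient cells and at 5.47, 5.87 and 5.997 in WT cells. It was the only gene of the 10 under the median of all probe-set means and had the largest negative change, -0.18 ± 0.20 (-0.65 to 0.29). By number the differences were -0.26, -0.03 and -0.25, which made it the only one of the 10 lower in all 3, as 13.2% of all genes were. Platelet and megakaryocyte markers, 5 of 8 above the median, summed to 439 to 516 in SAP-deficient and 472 to 512 in WT arrays on the linear scale. The part of those cells or of myeloid cells in the Itgb3 signal was not tested.

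Selplg, encoding PSGL-1, was at 10.12, 10.46 and 10.08 in SAP-deficient cells and at 10.06, 10.32 and 9.89 in WT cells. Number 2 was the highest in each genotype, and the groups overlapped. The change was 0.13 ± 0.15 (-0.21 to 0.48), with differences of 0.06, 0.14 and 0.19 by number. With the replicate number as a block, its unadjusted p was 0.0475, the only one of the 10 under 0.05 in that fit, in which 6.10% of all genes were under 0.05. Of all 29 probe sets of the 10 genes it was also the only 1, against 5.69% of all probe sets. Its adjusted p there was 0.814 (limma), and 0 of the 10 were called, against 0.00550% of all genes. Cd44 was at 12.11, 12.57 and 12.37 in SAP-deficient cells and at 12.15, 12.53 and 12.59 in WT cells. Number 1 was the lowest in each genotype. The change was -0.07 ± 0.14 (-0.40 to 0.26), and the signs differed by number, with -0.04, 0.04 and -0.22.

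No further probe set of these genes passed the test either. Of all 29, 14 had a positive and 15 a negative change, and 17 lay above the median level. Limma called 0 of the 29 and 0% of 45037 probe sets, and 0 of the 29 had an unadjusted p under 0.05, against 1.64% of all. Groups did not overlap for 2 of the 29, with SAP-deficient below WT, against 3.13% of all probe sets in that direction, and for 0 with SAP-deficient above WT (2.56% of all). These were the second Itgb3 probe set and the dim Itgb1 probe set 1438119_at. The second Itgb3 probe set (1421511_at) was at 5.58, 5.52 and 5.48 in SAP-deficient cells and at 5.80, 5.62 and 5.73 in WT cells, a change of -0.20 ± 0.11 (-0.45 to 0.05). Every SAP-deficient array lay under every WT array, and only the first WT array exceeded the median level of 5.75. Itgb1 1438119_at was near the bottom of the scale on every array, at 2.605, 2.754 and 2.734 in SAP-deficient and 2.813, 2.755 and 3.217 in WT cells.

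The further probe sets of a gene shared its order over the replicate numbers, highest and lowest number alike, in 10 of 19 cases. All 5 Itgav probe sets were highest in number 3 and lowest in number 2. The second-brightest, 1421198_at, was at 9.53, 8.96 and 9.76 in SAP-deficient cells and at 9.51, 8.79 and 10.02 in WT cells, with a change of -0.02 ± 0.32. Its numbers differed more widely than those of the brightest probe set, in the same order. All 5 Itga4 probe sets were highest in number 3, and 4 of the 5 were lowest in number 1. Of the 4 Cd44 probe sets, 3 were highest in number 2 and 3 lowest in number 1. Of the 6 Itgb1 probe sets, 3 were highest in number 3 and 5 lowest in number 2, and 1 of the 5 further ones had the full order. The further probe sets of Itgal, Itgae and Itgb3, 1 each, did not share their gene's order. The Cd44 probe set 1452483_a_at, which shared the order of its gene, was at 10.92, 11.52 and 11.40 in SAP-deficient and 11.00, 11.36 and 11.35 in WT cells. Its change of 0.05 ± 0.17 was opposite in sign to that of the brightest Cd44 probe set. The second Itgal probe set (1425367_at) also had the opposite sign, at -0.07 ± 0.12, and neither sign exceeded its error. Probe sets differ in how strongly they bind, so levels of different genes were not ranked against each other.

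**Figure D4:**
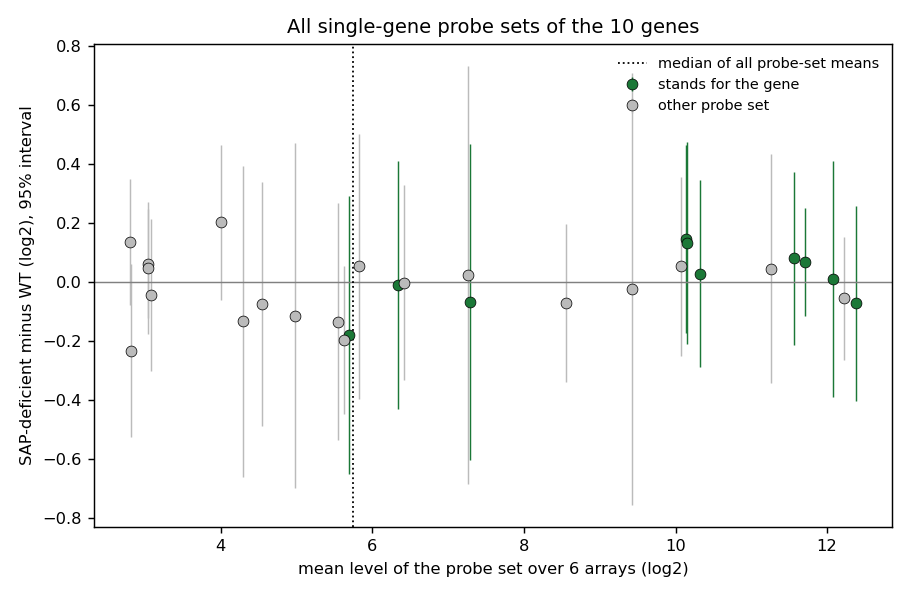
Change (SAP-deficient minus WT, log2, with 95% intervals from limma) of all 29 probe sets of the 10 genes against their mean level over the 6 arrays (log2). Green points stand for their gene, grey points are further probe sets of the same genes, and the dotted line is the median level of all probe sets. Every interval includes 0, for bright and dim probe sets alike.

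Among genes that act with these molecules, none was called either. Of 28 measured genes that activate integrins or link them to the cytoskeleton, 16 had a positive and 12 a negative change, with a median of 0.02. At an unadjusted p under 0.05 there was 1 higher and 0 lower (background 0.566% higher and 0.748% lower). This was Skap1, whose product SKAP55 works with the adaptor ADAP to bring LFA-1 into its adhesive state after T cell receptor signals. Skap1 was at 10.23, 10.26 and 10.24 in SAP-deficient cells and at 10.06, 9.94 and 10.00 in WT cells. Every SAP-deficient array lay above every WT array, as in 2.38% of all genes and as for Rasgrp1 of this list. The change of Skap1 was 0.25 ± 0.09, with an unadjusted p of 0.0248 and an adjusted p of 1.00 (limma). The gene of its partner ADAP, Fyb, was at 0.05 ± 0.14 and the talin gene Tln1, whose product opens integrins from within, at 0.02 ± 0.18. Zyx, encoding the focal adhesion protein zyxin, was at -0.21 ± 0.16.

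In the remaining lists the medians were also near 0, and some single genes changed more than any of the adhesion genes. The selectin gene Sele, under the median level, was at 0.46 ± 0.39, with groups that overlapped. Of 16 other integrin subunits 9 were higher and 7 lower (median 0.02), from Itga7, a laminin-binding α chain, at 0.29 ± 0.23 to Itga3, another such chain, at -0.18 ± 0.35 among those above the median level. Of 18 integrin ligands 11 were higher (median 0.04), with F11r, encoding the junctional molecule JAM-A that LFA-1 can bind, at 0.09 ± 0.11 and the fibronectin gene Fn1 at -0.13 ± 0.27. Of 17 selectins and enzymes that build selectin ligands 12 were higher (median 0.05). The sialyltransferase gene St3gal4 was at 0.28 ± 0.13 and the fucosyltransferase gene Fut4 at -0.22 ± 0.16, each with groups that did not overlap. Over all genes this happened upward in 2.38% and downward in 2.94%. The dim gene Chst4 of this list also had every SAP-deficient array above every WT array. In this list 0 genes had an unadjusted p under 0.05. Of 15 genes of hyaluronan handling and of the linkers under CD44, 9 were higher (median 0.02). The hyaluronan receptor gene Hmmr, which also serves the mitotic spindle, was at 0.19 ± 0.26, with differences of -0.26, -0.01 and 0.84 in numbers 1, 2 and 3. Cd74, the invariant chain that can associate with CD44 and is abundant in antigen-presenting cells, was at -0.17 ± 0.14.

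Of 23 other T cell adhesion molecules 12 were higher (median 0.004), with 1 gene higher at an unadjusted p under 0.05. Pecam1, encoding the junction and signalling molecule CD31, was at 6.47, 6.35 and 6.52 in SAP-deficient cells and at 6.08, 6.05 and 6.14 in WT cells. The groups did not overlap, which happened upward in 2.38% of all genes. The change was 0.36 ± 0.11 with an unadjusted p of 0.0135 and an adjusted p of 1.00 (limma). CD31 is also a marker of endothelium and myeloid cells. The 12 fibroblast and endothelial markers, Pecam1 among them and 5 above the median level, summed to 7288 to 9479 in SAP-deficient and 7362 to 10546 in WT arrays. Their mean log2 level was only 6.16 to 6.21 in SAP-deficient and 6.15 to 6.36 in WT arrays, so bright members made up most of these sums. Thy1, which T cells also carry, is in this list, so the sums are not a measure of stromal cells. The part of such cells in the Pecam1 signal was not tested. Among those above the median level the most negative was Crtam, an adhesion receptor of activated T cells, at -0.08 ± 0.15. Of 11 genes of the TGF-β response, which drives Itgae, 9 were higher (median 0.03), with Smad3 at 0.32 ± 0.22 and Smad4 at -0.09 ± 0.09, both encoding transducers of the TGF-β signal, and 0 with an unadjusted p under 0.05. Over all genes the median change was 0.01, and 9700 of 18193 were higher.

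**Figure D5:**
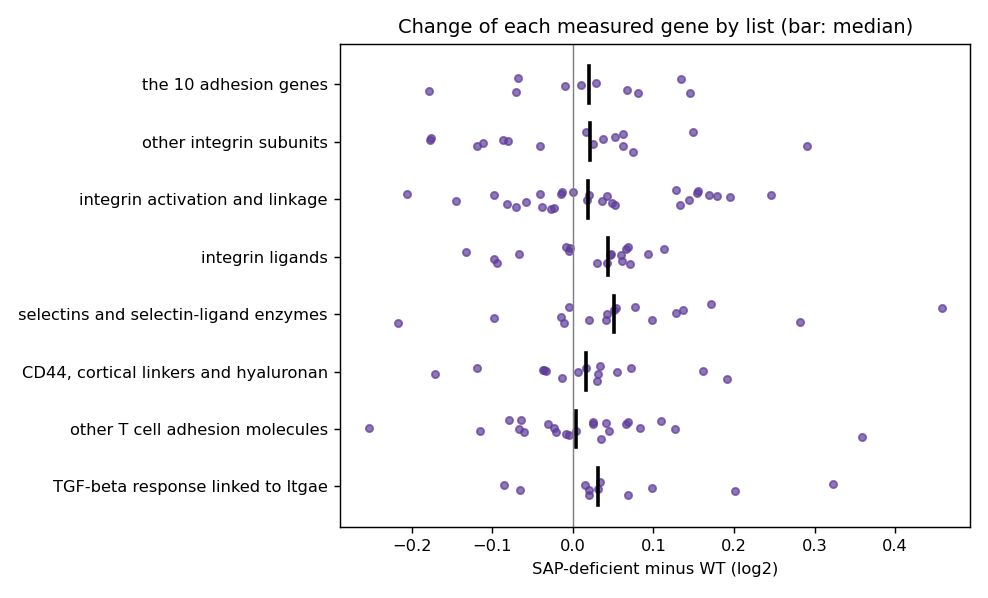
Change (SAP-deficient minus WT, log2) of every measured gene, with 1 row per list and a black bar at the list's median; vertical scatter within a row is only for legibility. The medians lie between 0.004 and 0.05, and in every list genes fall on both sides of 0.

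For Itga4, the gene with the widest range of the 10, the 5 genes with the most similar profile were sought among 10933 genes above the median level. Likeness was the root mean square difference over the 6 arrays after each gene's own mean was subtracted. The nearest was Tle1, encoding a transcriptional corepressor, at 0.07 log2 units, with 6.999, 7.53 and 7.79 in SAP-deficient cells and 7.10, 7.38 and 7.94 in WT cells. Next came the MHC class II gene H2-Ea (0.07), the endothelin gene Edn3 (0.07), Ninj1, whose product takes part in membrane rupture (0.08), and Ckap4, encoding an endoplasmic reticulum membrane protein (0.08). All 5 were lowest in number 1 of each genotype, as Itga4 was. They were picked for their likeness to Itga4 on these same arrays, so the shared low point follows from the choice.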

How the data were processed

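Total RNA (500 ng per array) was labelled for 6 mouse whole-genome arrays, 3 per genotype. The authors deposited log2 values for 45101 probe sets, made with Affymetrix Expression Console and RMA, per the submitters' processing notes. RMA equalises array distributions (medians 5.73 to 5.76) and compresses differences of dim probe sets. Versions and the genome build are not stated there. The number of arrays limits the precision.

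Here 64 control probe sets were set aside. Of 45037 tested, 34945 had 1 gene in the platform annotation, 932 several and 9160 none; 34741 matched the RefSeq gene table (GRCm38.p6), which updated symbols. Limma (version 3.58.1, R version 4.3.3) was fitted over all probe sets on genotype alone, with eBayes and an intensity trend. P-values were adjusted by Benjamini-Hochberg over the 18193 representative probe sets, or over all probe sets for single probe sets. The script was tested on simulated data.

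The 10 genes, the lists and the tests were chosen with earlier results of these data known. Named genes were the 10, Sh2d1a, in each list the largest change in each direction among genes above the median level and each gene with an unadjusted p under 0.05, and the 5 genes most like the widest-ranging member. Fyb, Tln1, Rasgrp1, Chst4 and Sele were named after their values were seen. List genes without a single-gene probe set were not analysed here.

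Pairing was checked because replicate numbers follow accession order. Arrays of opposite genotype were matched on odd-numbered probe sets outside the 10 genes, which paired equal numbers. They were checked on even-numbered probe sets of the same arrays (correlations of deviations 0.52, 0.73 and 0.59). Alternatives were eBayes without trend, robust eBayes, a second quantile normalization, a filter on dim probe sets, median centring, array weights, other probe sets for a gene, the replicate block and the removal of each array.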

Additional observations from a re-analysis of the deposited data

How the results depend on the processing

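Under all 15 alternatives limma called 0 of the 10 adhesion genes (9 genes with the dim probe sets left out, where Itgb3 has no value). The smallest adjusted p of any of them was 0.814, for Selplg with the replicate block. The block left 1 of the 10, Selplg, at an unadjusted p under 0.05 against 0 in the main fit, and 1110 against 239 of all genes. Over all genes 1 was called, against 0, with robust eBayes (1), without _x_at and _s_at probe sets (1) and with the matched pairs as a replicate block (1), and 0 to 1 when single arrays were left out. Sh2d1a crossed the threshold in each of the first 3, with an adjusted p of 0.0405, 0.0493 and 1.99e-07, against 0.0501. The median change of the 10 genes ran from -0.06 to 0.07 when single arrays were left out. In the other 9 alternatives 87 of 89 values of the 10 genes kept their direction. A gene's estimate could not change with eBayes without trend, with robust eBayes or with the replicate block. It also stayed the same with the filter on dim probe sets and without _x_at and _s_at probe sets. Those values kept their direction by construction. Of the values that could move, Itgae turned to 0.00172 with array weights and to 0.0227 with the mean of its probe sets. Leaving out single arrays gave values between -0.203 and 0.108 for Itgae, -0.236 and 0.128 for Itga4, -0.158 and 0.200 for Itgav, -0.0562 and 0.138 for Itgb1, -0.0233 and 0.211 for Itgal, -0.333 and 0.0154 for Itgb3, and -0.207 and 0.0483 for Cd44. Itgb2 (0.01 to 0.11), Itgb7 (0.01 to 0.24) and Selplg (0.01 to 0.25) kept their sign. Removing 1 array unbalances the replicate numbers, so differences between numbers enter these values. The intervals given above come from the fit on genotype alone; with the replicate block they were narrower, at -0.41 to 0.05 for Itgb3 and 0.002 to 0.27 for Selplg.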

Other observations

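With the replicate number as a block, several genes around the adhesion molecules had a small unadjusted p, and none was called. The genes given here are examples, chosen after their values were seen. At an unadjusted p under 0.05 in that fit, 4 of 28 genes that activate or link integrins were higher and 1 lower. Counts were 1 higher and 1 lower of 16 other integrin subunits, and 1 and 1 of 23 other T cell adhesion molecules. They were 3 and 0 of 17 selectins and their enzymes, and 2 and 0 of 11 genes of the TGF-β response. For the 18 integrin ligands they were 0 and 0, as for the 15 genes of hyaluronan handling and of the linkers under CD44. Smad3 had differences of 0.41, 0.25 and 0.31 in numbers 1, 2 and 3 (adjusted p = 0.445, limma), and Tgfbr2, encoding a TGF-β receptor chain, 0.11, 0.11 and 0.38 (0.778). Itgb1bp1, encoding ICAP-1, a regulator that binds the β1 tail, had 0.17, 0.17 and 0.21 (0.754), and the adhesion scaffold gene Pxn 0.10, 0.21 and 0.16 (0.779). St3gal4, a sialyltransferase gene, had 0.31, 0.15 and 0.39 (0.692). Zyx was lower in each number, at -0.12, -0.18 and -0.31 (0.697). In that fit 6.10% of all genes had an unadjusted p under 0.05.

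Among markers of stromal cells, Dcn, encoding the matrix proteoglycan decorin, was at 6.95 in SAP-deficient and 7.42 in WT cells on average, a change of -0.47 ± 0.20 (SE). Pdgfra, a growth factor receptor gene of fibroblasts, lay under the median level. It was at 4.73 in SAP-deficient and 4.49 in WT cells, a change of 0.23 ± 0.10. Averaged over every probe set of the gene, the changes were -0.14 for Dcn and 0.12 for Pdgfra. In the fit on the brightest probe sets both had an unadjusted p under 0.05 and an adjusted p of 1.00 (limma, n = 3 arrays each). Of the 12 fibroblast and endothelial markers, 4 were higher and 8 lower.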
